A study of Xenopus tropicalis with 84 samples.

Results

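The change in polyA+ RNA level was followed in uninjected control (UIC) embryos of *Xenopus tropicalis* between cleavage and the mid blastula, the period before large-scale transcription of the embryo's own genome. The comparison sets the 3 UIC libraries collected at 3.5, 4 and 4.5 hours post fertilisation (hpf), called late here, against the 3 collected at 2, 2.5 and 3 hpf, called early. These are 6 of the 21 UIC libraries and of the 42 polyA+ libraries of the series, and were chosen by condition and time alone. Each library was made from 10 pooled whole embryos raised at 25°C after *in vitro* fertilisation, with 1 library per time point. Neighbouring time points therefore served as replicates, and the spread within a window holds change over time as well as sampling and technical variation. Embryos injected with 10 ng of a morpholino oligonucleotide (MO) against the start codon of *nup107* were collected at the same times, and their 6 libraries from 2 to 4.5 hpf were used for comparison. UIC embryos received no injection, so the MO libraries differ from them by the injection as well as by the depletion.

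Values are TPM, a gene's share of all sequenced transcripts in a library, corrected for transcript length and scaled to the same total in each library. Of 34192 genes in the table, 12211 averaged at least 1 TPM over the 6 UIC libraries and were tested with limma on log2(TPM + 1), and a gene was called at a Benjamini-Hochberg adjusted p under 0.05. TPM keep no read counts, so the depth behind each value is unknown. All differences below are late minus early on the log2(TPM + 1) scale, given ± SE. Between 13241 and 13379 genes exceeded 0.4 TPM in the late libraries, against 13125 to 13278 in the early libraries. Spearman correlations between libraries 0.5 h apart ran from 0.981 to 0.993, and the 2 hpf library stood farthest from the rest, down to 0.940 against 4.5 hpf. ERCC spike-in RNAs took 6.00 ± 0.469% of TPM in the late libraries and 5.43 ± 0.298% in the early libraries (SD, n = 3 each), a difference that did not pass an exact two-sided permutation test (p = 0.3, where the smallest possible p is 0.1). The table named for ribosome-depleted libraries of the same embryos holds values identical to this one, so the values are taken as polyA+ from the table's name, and the same change without polyA selection was not analysed here.

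An egg is loaded with mRNA during oogenesis, and the first divisions of the embryo run on this maternal store while its own genome is almost silent. Much of the regulation in this period acts on the poly(A) tail: stored mRNAs with short tails are lengthened in the cytoplasm and translated, while others lose their tails soon after fertilisation and are destroyed only later. A library selected for poly(A) sees a transcript gain or lose tail as a change in level. A polyA+ value can therefore move with tail length, with decay or with synthesis, and these cannot be told apart here. In whole embryos, fewer cells that hold a transcript and less of it per cell cannot be told apart either.

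Maternal mRNAs moved in both directions at once. Of 12211 genes tested, 1778 (14.6%) were higher in late than in early UIC embryos and 1525 (12.5%) were lower, while 8908 were not called. The genes that rose did so by a median of 0.62, and those that fell did so by a median of -0.44. Changes of at least 1 on the log2 scale were mostly rises, with 218 genes higher and 20 lower. The late and early libraries of a gene did not overlap in 51.6% of all tested genes, and in every one of the 3303 called genes. Nearly all tested genes were present from the start. Of the 1778 that rose, 1771 exceeded 0.4 TPM in all 3 early libraries, as did 12028 of all 12211 tested genes. Of the 1525 that fell, 1520 still exceeded it in all 3 late libraries. The filter of the test makes such shares high.

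The number of calls rested on single libraries. Without the library at 2.5, 4 or 4.5 hpf, limma called 0 genes at an adjusted p under 0.05, with 4369, 4196 and 3897 genes at an unadjusted p under 0.05 against 5501 with all 6 libraries. Without 3.5 hpf, 118 genes were higher and 226 lower. Without 3 hpf, 2843 were higher and 1874 lower, and without the 2 hpf library that stood apart, 1280 were higher and 1175 lower. Since the windows of called genes do not overlap, leaving out 1 library cannot turn a sign. An unadjusted p under 0.05 was kept in each of the 6 fits by 1761 of the 1778 and 1510 of the 1525 genes. These genes were selected by their p in the same libraries, so this is largely built in and is no measure of stability. Scaling by the ERCC spike-ins moved the median difference of all tested genes to -0.06, against 0.07 in TPM, and gave 331 genes higher and 1539 lower. Of the 1778 genes called higher in TPM 331 kept their call, and of the 1525 called lower 1317 did. The sign of all 3303 genes was unchanged, which their selection for a clear difference in TPM in part builds in. The split between rises and falls thus depends on the scale, and differences below are relative to all RNA in the library.

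**Figure D1:**
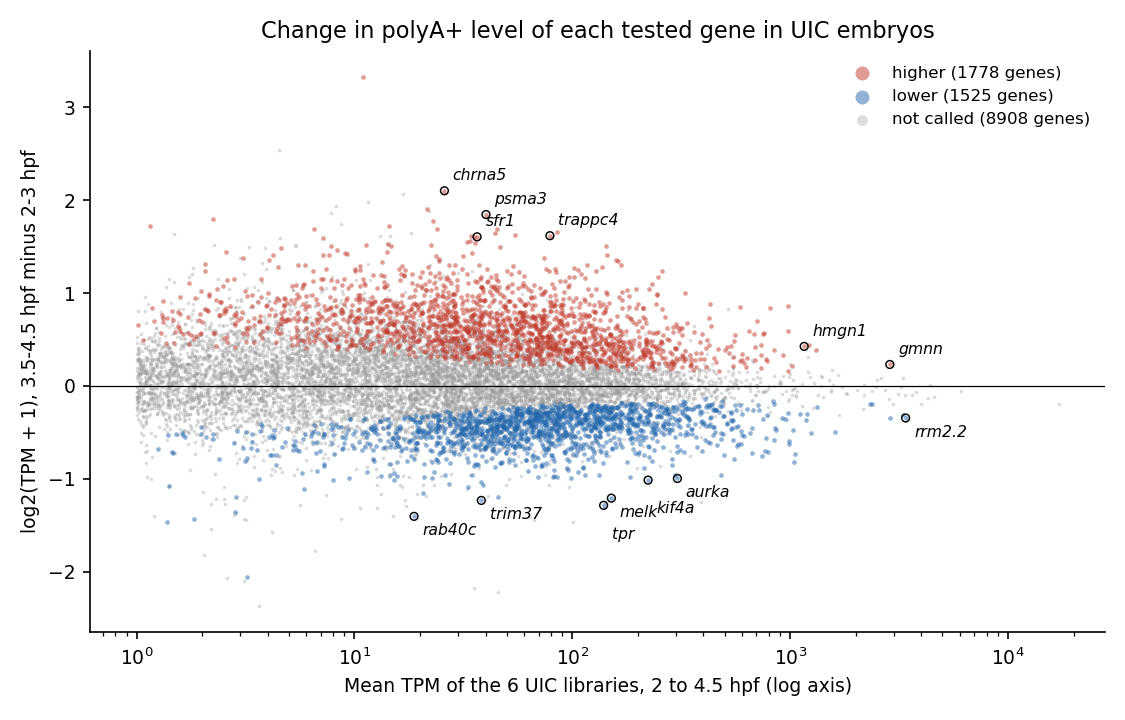
Difference in log2(TPM + 1) between 3.5 to 4.5 hpf and 2 to 3 hpf in UIC embryos for each of the 12211 tested genes, against its mean TPM over the 6 libraries on a log axis; red points were called higher (1778), blue points lower (1525), and grey points were not called (8908). Rises reached larger sizes than falls, and the share of genes called was lowest among scarce transcripts.

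The share of genes called grew with the level of the transcript. In the fifth of genes with the lowest mean level, up to 5.38 TPM, 5.85% were higher and 2.05% lower. In the fifth with the highest level, from 95.0 TPM, 19.0% were higher and 24.3% lower. Falls were thus the more frequent call among abundant mRNAs and the rarer one among scarce mRNAs. The gene lists below are set against all tested genes and were not matched for level, so their shares can reflect level as well. The genes that rose held 18.3% to 20.3% of gene TPM in the late libraries, against 11.6% to 14.7% in the early libraries. Those that fell held 18.11% to 18.8% in the late libraries, against 23.4% to 26.7% in the early libraries.

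Of called genes with a symbol and a mean of at least 10 TPM, the largest rise belonged to *chrna5*, a subunit of the nicotinic acetylcholine receptor. It stood at 29.9, 37.6 and 60.2 TPM in late UIC embryos, against 5.84, 8.25 and 13.6 TPM in early UIC embryos, a difference of 2.1003 ± 0.34 (adjusted p = 0.016). Its level increased at every step, with no overlap between the windows. *psma3*, which encodes an alpha subunit of the 20S proteasome core, behaved alike, with 48.1, 56.0 and 85.3 TPM in late against 10.3, 17.9 and 23.5 TPM in early libraries (1.84 ± 0.32, adjusted p = 0.019). *sfr1*, a partner of the recombination factor Swi5, gave another course, with 37.4, 52.6 and 78.4 TPM in the late libraries, against 15.8, 17.6 and 17.6 TPM in the early ones (1.60 ± 0.25, adjusted p = 0.015). For *sfr1* nearly all of the rise came after 3 hpf.

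*ndufa5*, a subunit of respiratory complex I, had 60.0, 70.6 and 73.7 TPM in late embryos, against 10.6, 25.2 and 31.4 TPM in early embryos (1.69 ± 0.36, adjusted p = 0.025). *sdhaf2*, an assembly factor for succinate dehydrogenase, had 23.5, 30.9 and 46.2 TPM in late and 2.88, 8.82 and 17.4 TPM in early embryos (1.91 ± 0.55, adjusted p = 0.045). *mgme1*, a nuclease that maintains the mitochondrial genome, reached 26.5, 33.5 and 48.4 TPM in late embryos, against 5.21, 10.3 and 19.2 TPM in early embryos (1.68 ± 0.43). In all of these the 2 hpf library was the lowest of the 6 and the 4.5 hpf library the highest. The rises of *ngrn* (1.65 ± 0.39) and of *rdh13*, a mitochondrial retinol dehydrogenase (1.64 ± 0.35), were of similar size. The rest of the 12 were *ttc39b* (1.78 ± 0.37), *slc38a9*, a lysosomal amino acid transporter (1.62 ± 0.34), *trappc4*, a subunit of a vesicle tethering complex (1.62 ± 0.36), and *abracl* (1.61 ± 0.27). One unnamed locus, LOC101731738, had a still larger difference of 3.32 ± 0.66 and is given here after its values were seen: it had 19.2, 21.6 and 18.6 TPM in late and 5.58, 0 and 0.36 TPM in early libraries.

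The largest falls were smaller than the largest rises. *rab40c*, a Rab-family GTPase with a SOCS box, had 11.0, 10.2 and 7.31 TPM in late UIC embryos, against 41.0, 26.4 and 16.9 TPM in early UIC embryos (-1.40 ± 0.31, adjusted p = 0.026), the largest fall among called genes with a symbol and a mean of at least 10 TPM. *melk*, the maternal embryonic leucine zipper kinase, had 109.6, 98.3 and 64.2 TPM in late and 270.4, 214 and 150.2 TPM in early embryos (-1.21 ± 0.26, adjusted p = 0.026). *trim37*, a ubiquitin ligase that limits centriole duplication in human cells, had 24.3, 22.4 and 18.3 TPM in late and 77.8, 52.1 and 34.5 TPM in early embryos (-1.23 ± 0.28, adjusted p = 0.028). These mRNAs declined at each of the 5 steps. *aurka*, the mitotic kinase Aurora A, had 194, 205 and 193 TPM in late embryos, against 562, 381 and 288 TPM in early embryos (-0.996 ± 0.22, adjusted p = 0.026), and *kif4a*, a chromosome-bound kinesin, had 144, 149.7 and 138 TPM in late against 409, 272 and 223 TPM in early embryos (-1.01 ± 0.20, adjusted p = 0.023). Both had reached their late level by 3.5 hpf and stayed there.

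Other falling mRNAs were lower at 3.5 and 4 hpf than at 4.5 hpf, a difference that rests on 1 library. *tpr*, a filament protein of the nuclear basket of the pore, had 65.9, 71.9 and 90.2 TPM in late and 310.5, 189.6 and 108 TPM in early UIC embryos (-1.29 ± 0.36, adjusted p = 0.041). *taf3*, a subunit of the transcription factor TFIID, had 22.1, 20.1 and 29.4 TPM in late and 80.4, 47.5 and 33.6 TPM in early embryos (-1.07 ± 0.31), and the zinc finger gene *znf292* had 17.4, 17.6 and 26.2 TPM in late and 67.7, 42.6 and 28.7 TPM in early embryos (-1.08 ± 0.31). In these genes most of the decline lay between 2 and 3 hpf, inside the early window, and their SEs were 0.31 to 0.36. The others of the 12 largest falls were *smg6*, an endonuclease of nonsense-mediated decay (-1.19 ± 0.22), *n4bp2* (-1.05 ± 0.26), *iqgap3* (-1.03 ± 0.25) and *thoc2*, a subunit of the mRNA export complex TREX (-0.99 ± 0.15).

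**Figure D2:**
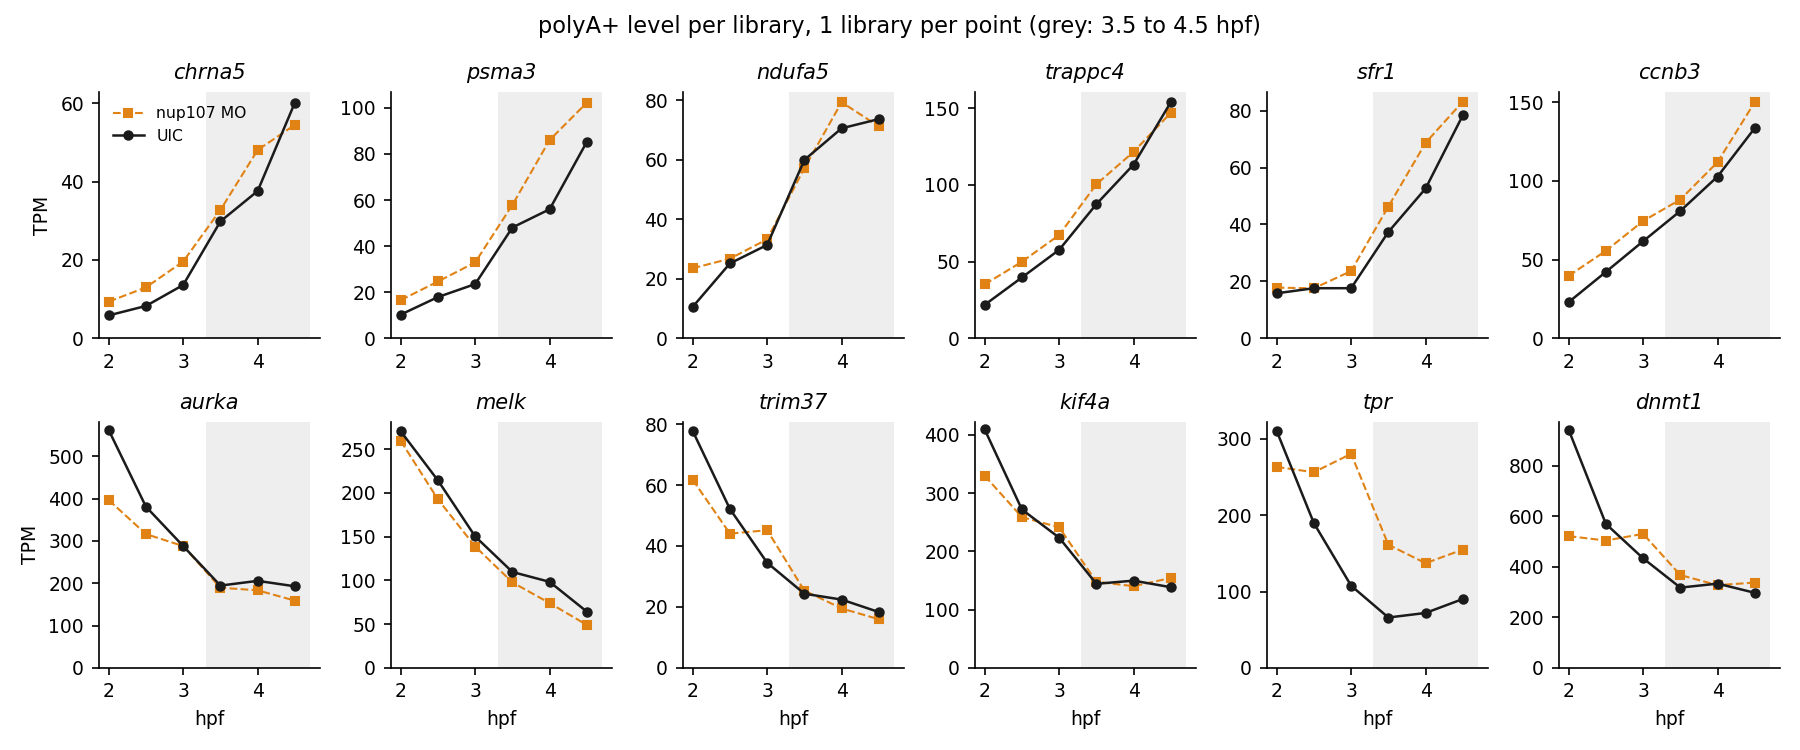
TPM of 12 genes in each *nup107* MO library (orange squares) and each UIC library (black circles) from 2 to 4.5 hpf, with 1 library per point and the late window in grey; the upper row holds genes that rose and the lower row genes that fell. In UIC embryos *sfr1* is nearly level until 3 hpf, and *aurka* and *kif4a* are nearly level from 3.5 hpf. *tpr* declines from 2 to 3 hpf in UIC but not in MO embryos.

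Among the most abundant called mRNAs, the changes were small. The replication inhibitor geminin, *gmnn*, had 3340.1, 3038 and 2913 TPM in late and 2531, 2667 and 2709 TPM in early embryos (0.23 ± 0.06, adjusted p = 0.035). The nucleosome-binding protein *hmgn1* (0.43 ± 0.09), the initiation factor *eif1b* (0.44 ± 0.10), the PCNA-binding protein *kiaa0101* (0.39 ± 0.08) and a row of the histone variant H3.3, *h3f3b* (0.21 ± 0.05), also rose. In the opposite direction, *rrm2.2*, the small subunit of ribonucleotide reductase, had 2966, 3004 and 2979 TPM in late and 3899.5, 3779.6 and 3695 TPM in early embryos (-0.35 ± 0.04, adjusted p = 0.0099). *ccna1*, the maternal cyclin A, had 2855, 3026 and 2909 TPM in late and 3651, 3668 and 3609 TPM in early embryos (-0.31 ± 0.04, adjusted p = 0.011). In *rrm2.2* and *ccna1* the libraries of 1 window lay closer to each other than to any library of the other. *odc1*, the ornithine decarboxylase of polyamine synthesis (-0.34 ± 0.04), the RNA-binding protein *hnrnpab* (-0.20 ± 0.06) and *cldn6.2*, a tight junction claudin (-0.19 ± 0.05), fell too. After scaling by spike-ins none of the 5 rises was called, with differences of 0.09 for *gmnn* (adjusted p = 0.56), 0.07 for *h3f3b* (adjusted p = 0.66), 0.24 for *kiaa0101* (adjusted p = 0.19), 0.29 for *eif1b* (adjusted p = 0.17) and 0.28 for *hmgn1* (adjusted p = 0.17), while the 5 falls were still called. After scaling by median ratios *gmnn* (adjusted p = 0.15), *h3f3b* (adjusted p = 0.16) and the fall of *hnrnpab* (adjusted p = 0.058) were not called. The symbol *h3f3b* stands on more than 1 row of the table, and how reads were divided between such rows was not tested.

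Cell cycle regulators fell more often than they rose. Of 38 measured members, 14 (36.8%) fell and 6 (15.8%) rose, with a list median of -0.23 against 0.07 over all genes tested, where 12.5% fell and 14.6% rose. Besides *aurka* and *ccna1*, the falls took in the separase *espl1* (-0.91 ± 0.16), the Polo kinase *plk1* (-0.73 ± 0.11), the phosphatase *cdc25a*, which activates cyclin-dependent kinases (-0.72 ± 0.09), the spindle checkpoint kinase *bub1b* (-0.68 ± 0.10), Aurora B, *aurkb* (-0.66 ± 0.11), and the B-type cyclin *ccnb2* (-0.49 ± 0.07). *plk1* stood at 477, 518 and 502 TPM in late and 975, 793 and 728 TPM in early embryos. *fbxo43*, the cytostatic factor Emi2 that holds the egg in metaphase, had 431, 402 and 334 TPM in late and 618, 591 and 528 TPM in early embryos (-0.58 ± 0.11, adjusted p = 0.020). *wee2*, the embryonic inhibitor of cyclin-dependent kinase, fell as well (-0.53 ± 0.07). Against this direction, *ccnb3* had 80.9, 103 and 134 TPM in late and 23.0, 42.2 and 61.7 TPM in early embryos (1.38 ± 0.35, adjusted p = 0.035), and the inhibitory kinase *pkmyt1* had 29.1, 30.8 and 38.3 TPM in late and 12.8, 18.5 and 23.1 TPM in early embryos (0.85 ± 0.22, adjusted p = 0.034). The other rises were *fbxo5* (0.44 ± 0.09), *ccne2* (0.40 ± 0.09), and *cdca8* (0.40 ± 0.07) and *birc5.2* (0.20 ± 0.04) of the chromosomal passenger complex. *incenp*, of the same complex as these and *aurkb*, fell (-0.46 ± 0.07), so its members moved in both directions.

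The mRNAs of *aurka*, *kif11*, *mos* and *cdk2* are known in *Xenopus* to lose their tails after fertilisation. Of these 4, only *aurka* was called, as lower (25.0%, against 12.5% of all genes tested), and 4 genes are too few to compare shares. *kif11*, a mitotic kinesin, had 212, 215 and 205 TPM in late and 387, 303 and 239 TPM in early embryos (-0.53 ± 0.16, adjusted p = 0.051). *mos*, the kinase of meiotic arrest, had 83.8, 90.3 and 84.0 TPM in late and 127, 102 and 92.6 TPM in early embryos (-0.30 ± 0.12, adjusted p = 0.093). *cdk2* had 211, 216 and 199.8 TPM in late and 247, 217 and 185 TPM in early embryos, and its windows overlapped (-0.04 ± 0.11, adjusted p = 0.79). All 4 differences were negative in UIC embryos, with a median of -0.41 against 0.07 over all genes tested. In MO embryos the median was -0.20 against 0.09 over all genes tested, with *aurka*, *kif11* and *cdk2* negative and *mos* at 0.17 ± 0.11.

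Of 48 measured rows of replication genes, 18 (37.5%) rose and 9 (18.8%) fell, against 14.6% and 12.5% of all genes tested, with a median of 0.09, which was -0.05 after scaling by spike-ins. Several fork proteins were among the rises. The clamp *pcna* had 158, 173 and 206 TPM in late and 74.5, 109.6 and 124 TPM in early embryos (0.82 ± 0.20, adjusted p = 0.030), and the helicase cofactor *gins2* had 410.4, 429 and 475 TPM in late and 161, 233 and 276 TPM in early embryos (1.00 ± 0.19, adjusted p = 0.020). The single-strand binding proteins *rpa1* (1.03 ± 0.28), *rpa2* (0.58 ± 0.10) and *rpa3* (0.44 ± 0.11) and the clamp loader subunits *rfc2* (0.87 ± 0.16), *rfc3* (0.71 ± 0.16) and *rfc4* (0.48 ± 0.10) rose with them. Factors of origin licensing were called in both directions. *cdc6*, which loads the helicase, had 771, 777 and 823 TPM in late and 1245, 1181 and 1142 TPM in early embryos (-0.59 ± 0.05, adjusted p = 0.0095), and its partners *cdt1* (-0.29 ± 0.06) and *orc1* (-0.42 ± 0.07) fell too. *orc2*, another subunit of the origin recognition complex, rose, with 170.2, 173 and 179 TPM in late and 117, 124 and 136 TPM in early embryos (0.47 ± 0.07, adjusted p = 0.014), and *orc3*, *orc4*, *orc5* and *orc6* were not called. *mcm7*, a helicase subunit, had 424, 412 and 375 TPM in late and 847, 662 and 596 TPM in early embryos (-0.78 ± 0.13, adjusted p = 0.017), while the subunits *mcm2* (0.68 ± 0.20) and *mcm4* (0.39 ± 0.11) rose. *rif1*, a regulator of replication timing (-0.98 ± 0.18), and *dnmt1*, the maintenance DNA methyltransferase (-0.96 ± 0.26), had the largest falls of the list. *dnmt1* had 317, 333 and 297 TPM in late and 942, 569.5 and 433 TPM in early embryos. *mcm3* stands on 2 rows that were called in opposite directions, 0.45 ± 0.13 for the row with the higher level and -0.49 ± 0.14 for the other, and its direction is uncertain.

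Of 42 measured mRNAs that encode regulators of maternal mRNA, 8 (19.0%) fell and 2 (4.76%) rose, against 12.5% and 14.6% of all genes tested, with a median of -0.07. At an unadjusted p under 0.05, 11 were lower and 9 higher. *papd4*, the cytoplasmic poly(A) polymerase Gld2, had 75.6, 78.0 and 80.1 TPM in late UIC embryos, against 139, 122 and 131 TPM in early UIC embryos (-0.74 ± 0.07, adjusted p = 0.0095). *pabpc1*, a cytoplasmic poly(A)-binding protein, had 276, 250.0 and 215 TPM in late and 470.0, 399.6 and 348 TPM in early embryos (-0.71 ± 0.13, adjusted p = 0.020). *pabpn1l*, an embryonic relative of the nuclear poly(A)-binding protein, moved the other way, with 118, 130.4 and 152 TPM in late and 39.7, 63.3 and 78.5 TPM in early embryos (1.18 ± 0.24, adjusted p = 0.023). The Y-box protein *ybx2* of stored mRNPs (-0.43 ± 0.10), the decay factor *patl1* (-0.43 ± 0.07), *pabpn1* (-0.41 ± 0.08), *zar1l* (-0.36 ± 0.07), the cytoplasmic polyadenylation factor *cpeb4* (-0.30 ± 0.08) and the AU-rich element binding protein *elavl1* (-0.30 ± 0.08) fell, and *btg2*, which recruits deadenylases, rose (0.24 ± 0.05).

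Of 30 measured genes of deadenylation, decapping and small RNAs, 4 (13.3%) rose and 5 (16.7%) fell, shares near the 14.6% and 12.5% of all genes tested, with a median of -0.09. The PAN2-PAN3 deadenylase fell in both subunits: *pan2* had 72.7, 77.7 and 78.1 TPM in late and 125, 119.6 and 117 TPM in early embryos (-0.65 ± 0.06, adjusted p = 0.0095), and *pan3* had 66.7, 71.4 and 64.3 TPM in late and 114, 99.7 and 92.5 TPM in early embryos (-0.58 ± 0.09, adjusted p = 0.016). The 5′ exonuclease *xrn1* (-0.65 ± 0.14), the decapping activator *dcp1b* (-0.59 ± 0.14) and the deadenylase *cnot6l* (-0.41 ± 0.11) fell as well. *parn*, the poly(A)-specific ribonuclease, had 152, 167 and 180.2 TPM in late and 124, 123 and 113 TPM in early embryos (0.47 ± 0.08, adjusted p = 0.018). The decapping enzyme *dcp2* (0.66 ± 0.19), *cnot10* (0.51 ± 0.11) and *rqcd1* (0.44 ± 0.13), the last 2 of the CCR4-NOT complex, rose with it.

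Nuclear genes of oxidative phosphorylation had the largest share of rises among the lists. Of 73 measured, 34 (46.6%) rose and 0 fell by limma at an adjusted p under 0.05, with 46 higher and 0 lower at an unadjusted p under 0.05 and a median of 0.37 against 0.07 over all genes tested. The median was 0.23 after scaling by spike-ins, where that of all tested genes was -0.06. *cox5a*, a subunit of cytochrome c oxidase, had 151, 189.9 and 244 TPM in late UIC embryos, against 60.9, 84.8 and 93.0 TPM in early UIC embryos (1.28 ± 0.21, adjusted p = 0.018). *cox7c* of the same complex had 286, 314 and 369 TPM in late and 132, 167 and 197 TPM in early embryos (0.98 ± 0.16, adjusted p = 0.017). *ndufv2* of complex I (0.90 ± 0.24), *sdhc* of complex II (0.69 ± 0.18), *uqcrq* of complex III (0.47 ± 0.12) and *atp5g3*, a subunit of the ATP synthase (0.59 ± 0.13), also rose, so the rises reached all 5 complexes. The list as a whole, low members included, summed to 12094 to 12126 TPM in the late libraries, against 9078 to 10398 TPM in the early libraries.

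Mitochondrial ribosomal proteins rose in 40.3% of cases and cytoplasmic ones in 14.3%, next to 14.6% of all genes tested. Of 72 mitochondrial members measured, 29 rose and 4 (5.56%) fell, against 12.5% of all genes tested. Their median was 0.28, and 0.14 after scaling by spike-ins. *mrpl53* had 20.9, 17.5 and 27.8 TPM in late and 4.03, 7.50 and 11.0 TPM in early embryos (1.502 ± 0.33, adjusted p = 0.026), and *mrpl28* had 111, 124 and 145 TPM in late and 42.3, 57.4 and 75.4 TPM in early embryos (1.13 ± 0.21, adjusted p = 0.020). The falls were *mrps30* (-0.51 ± 0.10), *mrpl39* (-0.46 ± 0.10), *mrpl1* (-0.34 ± 0.08) and *mrpl37* (-0.24 ± 0.06). Of 77 cytoplasmic ribosomal protein rows measured, 11 rose and 4 fell, with a median of 0.03 that was -0.12 after scaling by spike-ins and -0.04 after scaling by median ratios. *rpl26* (0.73 ± 0.11) and *rpl7* (0.68 ± 0.14) had the largest rises of that list, and *rps13* (-0.45 ± 0.07) and *rps27a* (-0.45 ± 0.07) the largest falls.

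Proteasome subunits gave 10 rises (30.3%) and 3 falls (9.09%) among 33 measured, against 14.6% and 12.5% of all genes tested, with a median of 0.21. After scaling by spike-ins this median was 0.08, where that of all tested genes was -0.06. Besides *psma3*, the rises included the base ATPase *psmc1*, with 75.3, 77.1 and 92.9 TPM in late and 27.7, 40.6 and 48.8 TPM in early embryos (1.08 ± 0.20, adjusted p = 0.021), and the catalytic subunit *psmb7* (1.05 ± 0.23). *psmc5* (-0.38 ± 0.09) and the assembly chaperone *psmd5* (-0.61 ± 0.12) fell. The fall of *psmd4* (-2.06 ± 0.43) rests on low and uneven values, 0, 0.88 and 0.84 TPM in late and 6.61, 2.42 and 8.63 TPM in early embryos. *psmd4* passed the filter of the test only through its early values, so its call, counted among the 3 falls, is no test. Of 57 translation initiation and elongation factors, 8 (14.04%) rose and 6 (10.5%) fell, shares near those of all genes tested. *eif3i* (0.87 ± 0.23) rose and *eif3c* (-0.81 ± 0.22) fell within the one complex, and the median of 0.06 was -0.08 after scaling by spike-ins and -0.01 after scaling by median ratios.

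Genes of the oocyte and the egg coat rose in 6 of 14 measured members and fell in 0 by limma at an adjusted p under 0.05, next to 14.6% and 12.5% of all genes tested, with 8 higher and 1 lower at an unadjusted p under 0.05. Their median was 0.37, and 0.23 after scaling by spike-ins, where that of all tested genes was -0.06. The oocyte growth factor *gdf9* had 127, 153 and 165 TPM in late UIC embryos, against 55.00, 82.4 and 104 TPM in early UIC embryos (0.91 ± 0.23, adjusted p = 0.032). The zona pellucida protein *zp4.2* had 136, 157 and 166 TPM in late and 58.6, 82.5 and 114 TPM in early embryos (0.88 ± 0.23, adjusted p = 0.035). The growth factor *bmp15* (0.66 ± 0.16), the oocyte transcription factor *figla* (0.54 ± 0.09) and the egg coat proteins *zp2* (0.55 ± 0.12) and *zp3.2* (0.49 ± 0.12) rose with them.

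Localised mRNAs of the germ plasm and vegetal pole gave 4 rises (16.0%) and 2 falls (8.00%) among 25 measured, near the 14.6% and 12.5% of all genes tested, with a median of -0.07. *velo1*, an organiser of germ plasm, had 539.6, 583 and 651 TPM in late and 429, 451 and 439 TPM in early embryos (0.42 ± 0.07, adjusted p = 0.019). The germ-cell Tudor proteins diverged, *tdrd5* rising (0.48 ± 0.10) and *tdrd6* falling (-0.45 ± 0.12). *otx1* (0.71 ± 0.18) and the lipid droplet protein *plin2* (0.16 ± 0.04) rose, and 1 of the rows named *wnt11* fell (-0.34 ± 0.09). The vegetal determinant *vegt* was not called, with 443, 494 and 466 TPM in late and 358, 434 and 463 TPM in early embryos (0.17 ± 0.10, adjusted p = 0.23).

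Maternal factors that pattern the embryo fell in 9 (45.0%) of 20 measured genes, against 12.5% of all genes tested. By limma at an adjusted p under 0.05, 0 rose, with 10 lower and 3 higher at an unadjusted p under 0.05 and a median of -0.13. In MO embryos 6 of the 20 were called higher and 4 lower, against 18.3% and 11.9% of all genes tested. Their median in MO embryos was -0.08, against 0.09 over all genes tested, and in UIC embryos that of all genes tested was 0.07. The list median thus lay below that of all tested genes in both, while the called members were mostly falls in UIC only. *pou5f3.3*, an Oct4-related factor, had 170.4, 185 and 146 TPM in late UIC embryos, against 392.3, 273 and 232 TPM in early UIC embryos (-0.81 ± 0.19, adjusted p = 0.030). *foxh1*, the DNA-binding partner of Smad2 in Nodal signalling, had 124, 149 and 115 TPM in late and 262, 192 and 168 TPM in early embryos (-0.66 ± 0.18, adjusted p = 0.038). *smad1*, the effector of BMP signalling, was even within each window, with 289, 292 and 287 TPM in late and 419, 409 and 421 TPM in early embryos (-0.52 ± 0.04, adjusted p = 0.0095). *foxi2*, the maternal activator of ectoderm genes, had 293, 301 and 304 TPM in late and 389.6, 379.9 and 384 TPM in early embryos (-0.36 ± 0.04, adjusted p = 0.011). The demethylase *kdm1a* (-0.75 ± 0.20), *dvl2* of the Wnt pathway (-0.73 ± 0.21), *sox3* (-0.37 ± 0.08), the proprotein convertase *furin* (-0.24 ± 0.06) and *smad2* (-0.21 ± 0.06) were the other falls.

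Chromatin packaging genes gave 2 rises (8.33%) and 5 falls (20.8%) among 24 measured, against 14.6% and 12.5% of all genes tested. *nap1l1*, a histone chaperone, had 837, 812 and 947 TPM in late and 432, 559 and 626 TPM in early embryos (0.70 ± 0.14, adjusted p = 0.022). The chaperones *chaf1a* (-0.22 ± 0.05), *chaf1b* (-0.50 ± 0.13) and *hira* (-0.33 ± 0.08) fell, as did the centromeric histone *cenpa* (-0.21 ± 0.04) and *h3f3a* (-0.26 ± 0.06). Numbered zinc finger genes rose in 25 (23.6%) and fell in 11 (10.4%) of 106 measured. Their median was 0.21, and 0.08 after scaling by spike-ins. *znf639* had 289, 341 and 390.1 TPM in late and 109, 156 and 192 TPM in early embryos (1.18 ± 0.21, adjusted p = 0.020). Among 25 measured mRNAs of the cytoskeleton, glycolysis and chaperones, 6 (24.0%) rose and 3 (12.0%) fell, with a median of 0.14 that was -0.01 after scaling by spike-ins. The chaperone *hspa8* had 1165, 1216 and 1336 TPM in late and 469.8, 716 and 932 TPM in early embryos (0.86 ± 0.23, adjusted p = 0.037), and the keratin *krt8* had 105, 107 and 95.0 TPM in late and 202, 158 and 142 TPM in early embryos (-0.69 ± 0.13, adjusted p = 0.021).

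**Figure D3:**
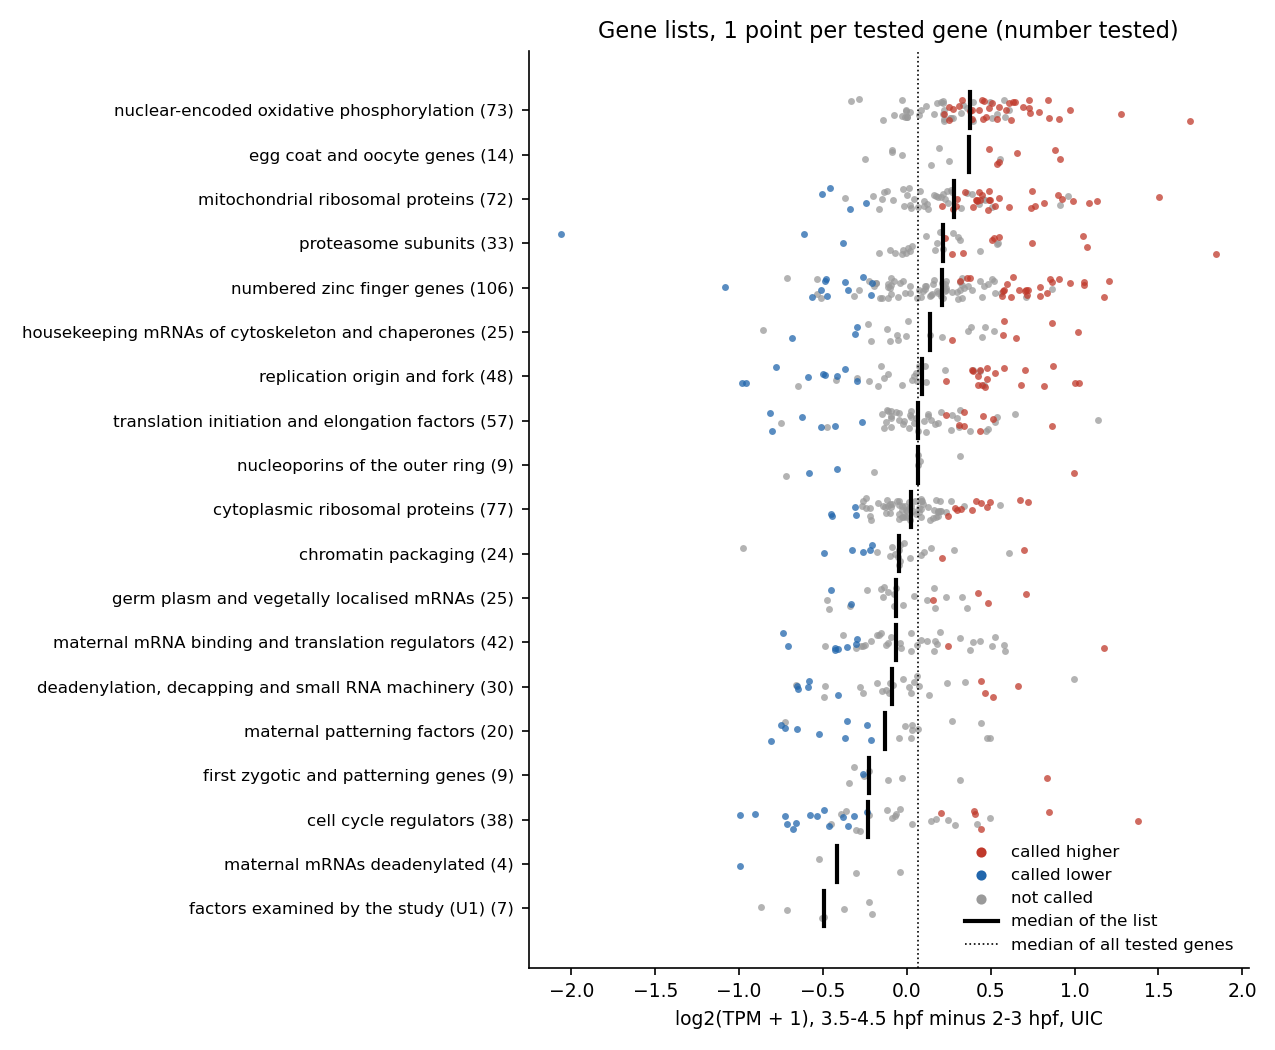
Difference in log2(TPM + 1) between 3.5 to 4.5 hpf and 2 to 3 hpf in UIC embryos for each measured member of 19 gene lists, with called genes in red (higher) and blue (lower), the median of each list as a black bar and the median of all tested genes as a dotted line; the number measured follows each name. Oxidative phosphorylation and egg coat genes have the highest medians (0.37 each), and cell cycle regulators (-0.23) and the factors examined by the study (-0.50) lie among the lowest.

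The outer-ring nucleoporins form the scaffold of the nuclear pore to which Nup107 belongs. *nup107* itself had 199, 216 and 212 TPM in late UIC embryos, against 192, 200.3 and 207 TPM in early UIC embryos, windows that overlapped (0.07 ± 0.06, adjusted p = 0.40). Of 9 measured members, *nup37* rose, with 54.4, 57.6 and 70.0 TPM in late and 19.5, 31.3 and 42.6 TPM in early embryos (1.00 ± 0.27, adjusted p = 0.038). *sec13*, which also coats secretory vesicles, fell, with 96.2, 100.2 and 107 TPM in late and 156, 149.9 and 150.1 TPM in early embryos (-0.59 ± 0.06, adjusted p = 0.010), and *nup133* fell by less (-0.42 ± 0.09). Thus 1 (11.1%) rose and 2 (22.2%) fell, against 14.6% and 12.5% of all genes tested, and 6 were not called. The list median of 0.06 was near the 0.07 over all genes tested. So few calls give no direction for the complex.

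The study examined 7 transcription factors with an identified binding motif from its cluster U1. That cluster holds genes with increased expression in MO relative to UIC embryos, which is another measure than change over time in UIC. Of the 7 factors, 0 were called in UIC embryos by limma at an adjusted p under 0.05, with 1 lower at an unadjusted p under 0.05. They were picked from these same libraries by the study, so their direction is not independent evidence. Their median difference was 0.15 in MO and -0.50 in UIC embryos, where all 7 differences were negative. The repressor *rest* had 28.1, 25.7 and 41.0 TPM in late and 60.5, 46.6 and 30.3 TPM in early UIC embryos (-0.50 ± 0.28, adjusted p = 0.20), and *mga* had 5.03, 6.45 and 10.0 TPM in late and 27.4, 13.1 and 6.50 TPM in early UIC embryos (-0.87 ± 0.48, adjusted p = 0.20). Both were highest at 2 hpf, lower at 3 hpf and higher again in the 1 library at 4.5 hpf.

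Few of the listed zygotic genes that were near 0 in the early libraries reached 1 TPM by 4.5 hpf. New transcripts of genes with a maternal store cannot be told apart from that store here. Of 55 rows in a list of first zygotic and patterning genes, 44 averaged at most 0.4 TPM in the early UIC libraries, and 0 of the 44 reached 1 TPM at 3.5 hpf. At 4, 4.5, 5 and 5.5 hpf, 1, 4, 14 and 31 of them did. *nodal6*, a Nodal ligand, was listed at 0, 1.13 and 3.16 TPM in the late libraries and at 0 in all 3 early ones. The organiser homeobox gene *sia2* was listed at 0.23, 0.14 and 2.74 TPM in the late and at 0, 0.13 and 0 TPM in the early libraries. The organiser gene *gsc* was listed at 0 in all 6 and reached 3.00 TPM at 5.5 hpf. Of the 55 rows, 9 passed the filter of the test. *sox17b.2*, an endoderm determinant, had 1.77, 1.01 and 2.69 TPM in late and 0.39, 0.49 and 0.74 TPM in early embryos, and passed the filter only through its late values, so its call is no test. *id2* fell, with 494, 547 and 498 TPM in late and 602, 619 and 625 TPM in early embryos (-0.26 ± 0.05, adjusted p = 0.023). Across the whole table, 50, 68 and 67 genes with an early mean of at most 0.4 TPM stood at 1 TPM or more at 3.5, 4 and 4.5 hpf, so their number did not grow from 4 to 4.5 hpf, and 19 of the 67 rose on to 5.5 hpf. At 5 and 5.5 hpf 147 and 312 such genes did. Only 8 genes with so low an early mean passed the filter of the test. The 1 called among them, the unnamed gene14188, likewise passed only through its late values and was listed at 0, 3.13 and 1.49 TPM in late and 2.23, 0 and 7.73 TPM in early MO libraries, and at 2.01, 2.49 and 2.39 TPM in late and at 0 in all 3 early UIC libraries. Its windows overlapped in MO embryos.

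Markers of blood and follicle cells were near 0. Of 8 blood genes in the table, 0 passed the filter, and they summed to 1.46 to 2.6 TPM in the late and 1.04 to 2.70 TPM in the early libraries, with 4 of them at 0 in all 6. Of 6 ovarian follicle cell genes 0 passed, with sums of 0.00 to 0.13 TPM in the late and 0.04 to 0.26 TPM in the early libraries. The 6 maternal egg markers were all measured and summed to 1528 to 1595 TPM in the late and 1308 to 1406 TPM in the early libraries. Of 10 genes of gastrula and later tissues in the table, 2 passed the filter and 0 were called by limma, also at an unadjusted p under 0.05, and the 10 summed to 10.8 to 11.1 TPM in the late and 9.30 to 12.1 TPM in the early libraries. None of the sperm and testis genes looked for is in the table.

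The step from 3 to 3.5 hpf, which divides the windows, was the largest median step among called genes. Over the 5 intervals from 2 to 4.5 hpf, the genes called higher had median steps of 0.23, 0.08, 0.26, 0.14 and 0.07 in MO embryos and 0.29, 0.13, 0.31, 0.09 and 0.12 in UIC embryos. The genes called lower had median steps of -0.04, -0.02, -0.30, -0.15 and 0.10 in MO embryos and -0.15, -0.04, -0.35, 0.02 and -0.07 in UIC embryos. The calls use this boundary in UIC, so a large step there is in part fixed by the choice of windows, while the MO libraries took no part in the calls. Genes called in neither direction had a median step of 0.05 in MO and -0.03 in UIC embryos from 3 to 3.5 hpf. In UIC embryos 953 of 1778 rises went up at each of the 5 intervals, and 299 of 1525 falls went down at each. The largest step of a rise was from 2 to 2.5 hpf in 680 genes and from 3 to 3.5 hpf in 817, while 1248 of the 1525 falls had their largest step from 3 to 3.5 hpf.

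Beyond the windows, the genes called higher stayed up through the late blastula, and their median then fell below its early level. Their median level over the early mean was 0.74 at 4.5 hpf, 0.88 at 5.5 hpf, 0.54 at 8 hpf and 0.11 at 10 hpf, and was -0.34 at 12 hpf. Genes not called had medians of 0.07, 0.13, -0.06, -0.37 and -0.63 at these times, so the median of the rises stayed above theirs. At 12 hpf 58.4% of the genes called higher were below their early mean, against 69.1% of all tested genes. *rdh13* stood at 102 TPM at 5 hpf and at 2.79 TPM at 12 hpf, and *mgme1* at 61.0 TPM at 6 hpf and at 1.47 TPM at 12 hpf. *psma3* kept its rise, with 172 TPM at 12 hpf. The genes called lower had medians of -0.48 at 4.5 hpf, -0.62 at 5 hpf and -0.32 at 6.5 hpf, and reached -1.29 at 12 hpf, when 83.6% of them were below their early mean. *ccna1* fell to 10.5 TPM at 12 hpf, while *hnrnpab* stood at 5355 TPM there, above its values in all 6 libraries of the windows. There is 1 library per time point, so these later values have no replicate error. The early mean used as baseline comes from libraries that also made the calls, so gaps between the classes are in part built in. In MO embryos, set against their own early mean, the medians at 12 hpf were -0.53 for genes called higher in UIC. They were -1.24 for those called lower and -0.68 for those not called.

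**Figure D4:**
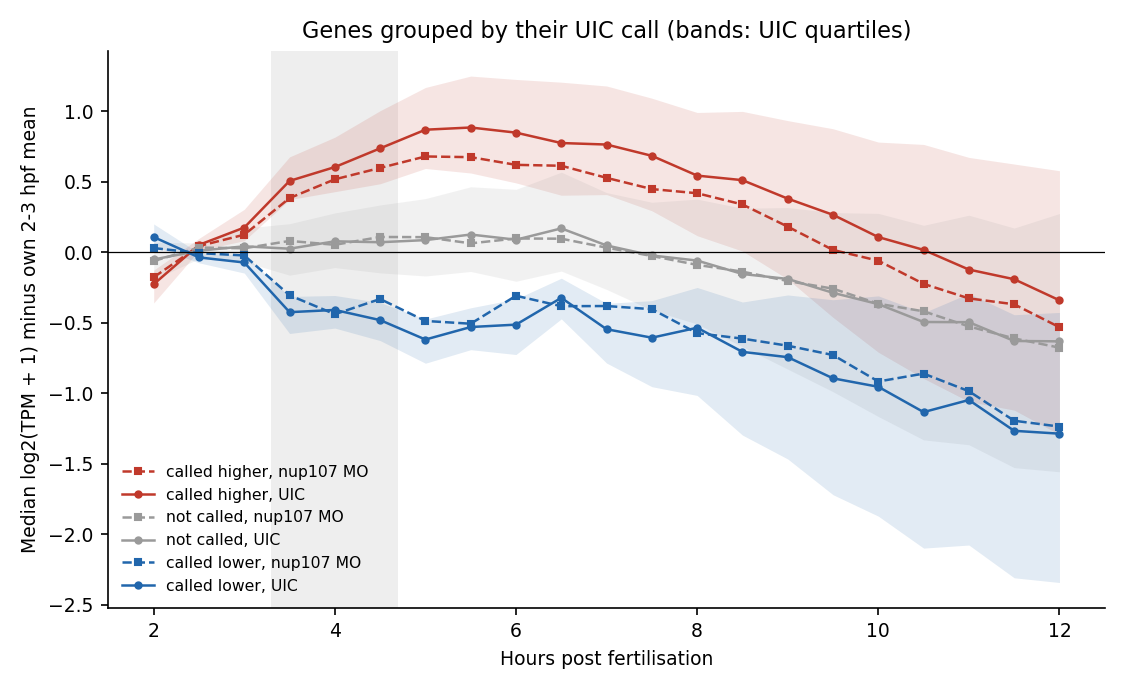
Median log2(TPM + 1) relative to each gene's own mean at 2 to 3 hpf in *nup107* MO libraries (dashed lines, squares) and UIC libraries (solid lines, circles), for genes called higher (red), lower (blue) or not called (grey) in UIC; bands are the UIC quartiles and the late window is grey. In UIC embryos the median of the rises peaks at 5.5 hpf (0.88) and is below 0 from 11 hpf, while that of the falls continues to -1.29 at 12 hpf. The median of genes not called is -0.63 at 12 hpf.

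MO embryos, whose libraries were not used for the UIC calls, mostly changed in the same directions over the same hours. In 12 libraries fitted together, 2233 genes (18.3%) were higher and 1453 (11.9%) lower in late than in early MO embryos. That fit takes each gene's spread from UIC and MO libraries together, so the overlap of calls is in part built in. The MO and UIC embryos were also siblings. Of the 1778 genes called higher in UIC, 1323 were called higher in MO, which is 74.4% of the UIC calls and 59.2% of the MO calls, and 0 were called lower. Of the 1525 called lower in UIC, 1066 were called lower in MO, 69.9% of the UIC calls and 73.4% of the MO calls, and 2 were called higher. The sign was shared by 99.2% of the UIC rises and 97.4% of the UIC falls, against 77.2% of the genes not called in UIC. The genes called higher had a median difference of 0.50 in MO and 0.62 in UIC embryos, and those called lower had -0.36 in MO and -0.44 in UIC, where the calls were made. With spike-in scaling the MO calls were 75 higher and 539 lower.

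**Figure D5:**
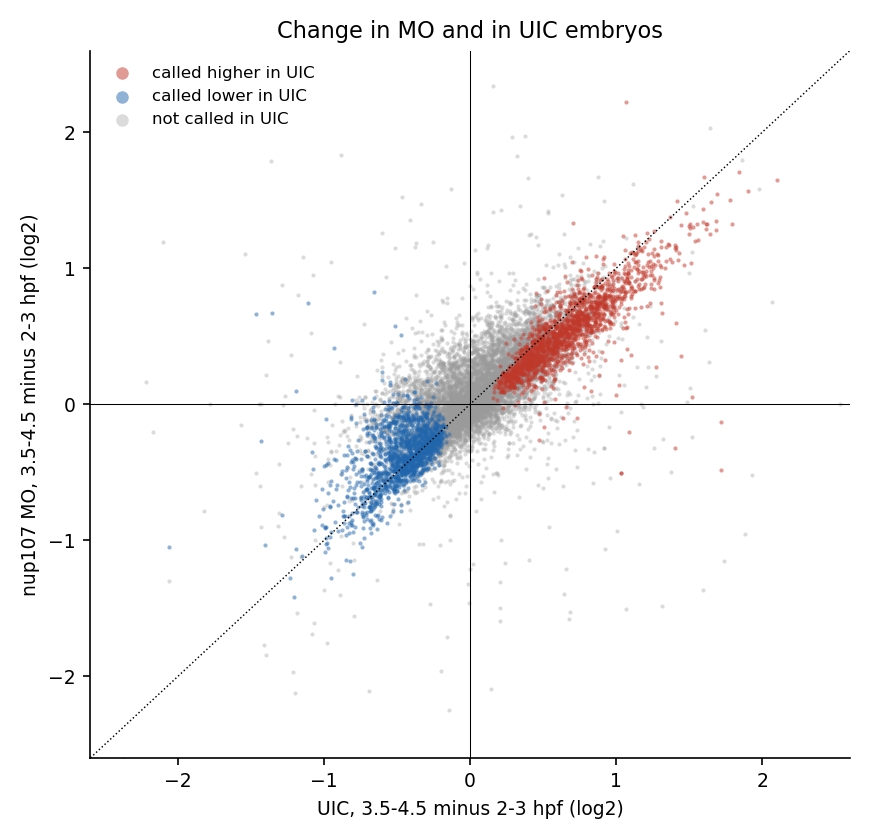
Difference in log2(TPM + 1) between 3.5 to 4.5 hpf and 2 to 3 hpf in *nup107* MO embryos (vertical axis) against that in UIC embryos (horizontal axis) for each tested gene, coloured by the UIC call, with equality as a dotted line; 6 genes lie outside the axes. Genes called in UIC lie mostly in the quadrants of shared sign (99.2% of rises and 97.4% of falls).

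No gene was called for a change over time that differed between MO and UIC embryos. The test of the difference between the changes called 0 of 12211 genes (0.0%) by limma, with a smallest adjusted p of 0.11 and with 588 genes (4.82%) at an unadjusted p under 0.05. That fit does not pair the MO and UIC libraries of the same hour. With the time point as replicate block, limma again called 0 genes, with 1300 at an unadjusted p under 0.05, more than the 588 without it. The lack of calls therefore does not show that the changes were equal. *smad4.2*, the shared Smad of TGF-beta and BMP signalling, had 19.8, 19.4 and 18.8 TPM in late and 10.3, 13.4 and 16.8 TPM in early MO embryos, and 11.7, 14.1 and 13.96 TPM in late and 20.3, 17.2 and 18.9 TPM in early UIC embryos. The difference of its changes, MO minus UIC, was 0.99 ± 0.21 (adjusted p = 1.0). *gemin6*, a component of the SMN complex that assembles spliceosomal snRNPs, had 84.0, 89.9 and 82.5 TPM in late and 65.0, 69.7 and 70.1 TPM in early MO embryos, and 82.2, 87.5 and 90.9 TPM in late and 53.6, 57.3 and 58.6 TPM in early UIC embryos, a difference of -0.29 ± 0.09 (adjusted p = 1.0). *dusp18*, a dual-specificity phosphatase, had -0.81 ± 0.25, *tiparp*, an ADP-ribosyltransferase, -0.58 ± 0.18, and *c15orf61* -0.69 ± 0.22. The early course of *tpr* differed in appearance, with 161, 137 and 155 TPM in late and 263, 256 and 280.4 TPM in early MO embryos, but its difference of changes was 0.47 ± 0.40 at an unadjusted p of 0.27.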

How the data were processed

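Polyadenylated RNA of whole *X. tropicalis* embryos was sequenced as stranded paired-end libraries with ERCC spike-ins, and RNA of all samples was extracted together. As deposited by the authors, the values are TPM estimated with RSEM from reads aligned with STAR to Xt9.1 and the ERCC sequences, whose versions are not given in the sources used here. The deposited TPM do not carry the dinucleotide correction of the study. TPM keep no read counts, so no counting interval or floor is given. The 2 deposited tables, named for polyA+ and ribosome-depleted RNA, were identical and were used once, and the 42 samples labelled ribosome-depleted were not analysed here. Which kind of library the values describe was not tested. The table holds 34192 genes and 92 ERCC rows. Of the genes, 7405 have no symbol, and 3266 rows share a symbol with another row. The table carries no coordinates, and none are given.

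UIC libraries at 3.5, 4 and 4.5 hpf were compared with those at 2, 2.5 and 3 hpf. Genes that averaged 1 TPM or more over these 6 libraries were tested on log2(TPM + 1) with limma 3.58.1 in R 4.3.3, with the mean-variance trend and Benjamini-Hochberg adjustment at 0.05. P-values measure the spread between neighbouring time points of 1 experiment. The MO libraries entered a fit of 12 libraries with a term for the difference between the changes. Single values were compared by exact permutation (scipy 1.17.1). The limma step was tested on simulated data with independent noise and no change over time inside a window. It therefore does not test the use of neighbouring time points as replicates. The study itself fitted smooth curves over time, which is not a test of windows.

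Named genes were the 12 largest differences in each direction among called genes with a symbol and at least 10 TPM, the 5 most abundant called genes in each direction, called genes with an early mean of at most 0.4 TPM, the 5 genes with the smallest p for the difference between MO and UIC in each direction, and members of the gene lists. One gene that this rule names is not reported here. The lists and the comparison were chosen with earlier results of these data known. Alternatives were other filters, pseudocounts, scalings and libraries.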

Additional observations from a re-analysis of the deposited data

Results flagged for a closer look

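In 8 of the named genes and list members, every late library lay on one side of every early library in UIC embryos and on the other side in MO embryos. Of all 12211 tested genes, 30 (0.246%) did so, against 4302 that moved the same way without overlap in both. Of the 8, *pigo*, *smad4.2*, *c16orf13*, *mcmbp* and *galt* were named for a small p of the difference between MO and UIC. They were thus picked for differing changes, and the 8 cannot be set against the share over all genes. None of the 8 passed the test of the difference between the changes, given here as MO minus UIC ± SE.

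For 7 of these genes the late libraries were above the early ones in MO and below them in UIC embryos. The mitochondrial ribosomal protein gene *mrps2* had 13.5, 9.77 and 15.7 TPM in late and 6.48, 9.29 and 1.86 TPM in early MO embryos, and 11.7, 9.67 and 8.06 TPM in late and 11.8, 14.03 and 12.8 TPM in early UIC embryos, a difference of 1.55 ± 0.53. *smad4.2* had a difference of 0.99 ± 0.21, *c16orf13* of 0.90 ± 0.20, and *mcmbp*, which binds the MCM helicase, of 0.49 ± 0.11. A row of *pigo*, an enzyme of GPI anchor synthesis, had a difference of 0.98 ± 0.16. The tubulin gene *tubb4b* had 0.42 ± 0.15, and *znf717* had 0.19 ± 0.11. For *galt*, which encodes galactose-1-phosphate uridylyltransferase, the order was the opposite, with 3.25, 2.90 and 3.11 TPM in late and 4.41, 5.72 and 3.27 TPM in early MO embryos, and 3.27, 3.74 and 3.87 TPM in late and 3.04, 1.69 and 1.99 TPM in early UIC embryos, a difference of -0.93 ± 0.26. The adjusted p of the difference was 0.49 for *pigo* and 1.0 for the other 7 genes.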

How the results depend on the processing

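The number of called genes moved with the processing. Their sign under other filters, pseudocounts or libraries is fixed by windows that do not overlap and says nothing of stability. With no filter on low values 682 genes were higher and 873 lower among 19722 tested. Scaling by ERCC spike-ins gave 75 higher and 539 lower in MO embryos, and 331 higher and 1539 lower in UIC embryos. A straight line over the 6 times gave 3900 higher and 2254 lower. Without both 2 and 4.5 hpf, an alternative chosen after seeing the data because 2 hpf stood apart, 629 were higher and 723 lower. Leaving out 1 library at a time gave 0 to 2843 higher and 0 to 1874 lower. Other filters, pseudocounts of 0.1 and 5 TPM, scaling by median ratios and limma without the trend gave 1359 to 1931 higher and 1248 to 1794 lower. The difference between the changes in MO and UIC was called for 0 to 1 genes with 1 library left out, the 1 arising without UIC at 4 hpf and without MO at 4 hpf, and for 0 genes with the time point as replicate block, where 1300 had an unadjusted p under 0.05. The block pairs MO and UIC libraries of the same hour, and the early and late windows themselves share no time point. Of 35 named genes, 21 lost their call with no filter, 5 with spike-in scaling, 8 without the trend, and all 35 without 2.5, 4 or 4.5 hpf. The cause was not tested. The planned search for 3′ UTR motifs was not run, because it needs sequences not used here. The limits are 1 library per time point, an unknown depth, and a filter under which a gene at 0 early and below 2 TPM late is not tested.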
